A study of Mus musculus with 20 samples.

Results

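Netrins are secreted relatives of the laminin short arms that guide growing axons and blood vessels, and they are also found in the basement membranes of branching epithelia. Netrin 1 (Ntn1) binds the receptors Dcc and neogenin (Neo1) and the Unc5 family (Unc5a, Unc5b and Unc5c), whereas netrin 4 (Ntn4) assembles with laminins. The receptors Dcc and Unc5 are called dependence receptors because they can promote cell death when no ligand is bound. These 7 genes, of 27962 gene names on the array, were followed in whole mouse trachea. They were taken as every non-control probe that carried one of the 7 gene names, which gave 12 of the 41174 probes on the array. Ntn4 was chosen by its values on these arrays. It stands in the study's list of transcripts that differed between the genotypes when uninjured and were not called with injury in either, so that all 4 groups entered the choice, and every Ntn4 value below is a description with no test. The other 6 genes were added by name.

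RNA from 20 whole tracheas was measured, 5 in each of the groups WT-control, KO-control, WT-injury and KO-injury. All mice were labelled C57/Bl6 and 4 months old, and the study's methods describe wild-type and Myd88 knockout (Myd88KO) animals of both sexes. Control tracheas were uninjured, and injured tracheas were collected 3 days after a single exposure to 2% polidocanol, a detergent that strips the airway epithelium. Myd88, an adaptor of Toll-like and interleukin 1 receptors, was deleted in every cell of the Myd88KO mice. Per the study's methods, the knockout line had been backcrossed to C57/Bl6JOlaHsd and was bred by knockout crosses, and the wild-type mice came from a separate colony, so that a difference between genotypes here cannot be told apart from a difference between the colonies.

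Each trachea was hybridised to 1 one-colour array, and between 57.5% and 67.8% of the spots of an array were well above background. Levels are log2 intensities relative to the 75th percentile of the array, so that a difference of 1 is a factor of 2. The Myd88 probe lay between 1.60 and 2.04 on the KO-control arrays and between 1.94 and 2.28 on the WT-control arrays. After injury it lay between 1.54 and 2.09 on KO-injury and between 2.36 and 2.80 on WT-injury arrays. The injured difference was -0.77 (limma, adjusted p = 0.00824). The Myd88 probe gave signal in both genotypes, and since it was not determined whether the probe lies within the deletion, it does not check the labels. Markers of secretory, ciliated and basal epithelium and of cartilage were detected in every group. The lowest correlation between arrays of 1 group (0.925) lay among the KO-injury arrays, of which replicate 5 stood apart, with a summed proliferation marker level of 1.61 against 3.57 to 4.96 on the other 4. Without that array the number of tested probes called between injured and uninjured Myd88KO tracheas rose from 98 to 1075, so Ntn4 results for this group are also given without it.

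The sequence shown first is that of the gene the results turn on. RefSeq promoters (build GRCm38.p6) were matched for 5 of the 7 genes, and the 250 bases before the start of Ntn4 are printed from 5′ to 3′ on the plus strand at chr10:93640799-93641048, with each GC box (GGGCGG on either strand) in capitals.

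Ntn4 promoter: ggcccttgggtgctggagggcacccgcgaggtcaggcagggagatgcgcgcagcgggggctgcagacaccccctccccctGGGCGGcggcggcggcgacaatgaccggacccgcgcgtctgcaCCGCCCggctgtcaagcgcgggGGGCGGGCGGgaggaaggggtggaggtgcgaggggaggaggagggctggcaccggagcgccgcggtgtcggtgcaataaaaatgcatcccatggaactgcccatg

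The Ntn4 promoter held 4 GC boxes, of which 2 overlapped, and 26 CpG dinucleotides. A GC box was found in 32.7% of 32851 promoters of the same length. The GC content of the Ntn4 promoter was 73.2%, against a median of 52.4% over all promoters. The letters TATAAA, present in 12.4% of promoters, and GGGNTTTCC, a form of the NF-kB site present in 1.46%, did not occur in it on either strand. The promoters of Unc5a, Unc5b, Unc5c and Neo1 held 5, 2, 0 and 1 GC boxes and likewise neither of the other motifs. The array files do not state a genome build, and in them the Ntn4 probe lies on chromosome 10 at 93304641 to 93304700 on the plus strand, so the position of the probe and that of the promoter are not on 1 scale.

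Ntn4 was detected on Myd88KO arrays and was at or near background on wild-type arrays. The probe was well above background on 5 of 5 KO-control and 5 of 5 KO-injury arrays, but on 1 of 5 WT-control and 0 of 5 WT-injury arrays. It met the filter for testing, detection on at least 10 of the 20 arrays, only through the Myd88KO arrays. In uninjured wild-type tracheas its levels were -5.08, -5.27, -5.47, -4.82 and -4.77 in replicates 1 to 5. In uninjured Myd88KO tracheas they were -3.14, -3.14, -3.35, -3.33 and -3.08. The lowest KO-control array thus lay above the highest WT-control array. The background-subtracted intensities behind these levels were 17.5 to 29.8 units on WT-control arrays and 56.6 to 92.7 units on KO-control arrays (75th percentile of an array, 532 to 1036 units).

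After injury the picture for Ntn4 was similar. The levels were -5.41, -5.85, -5.43, -6.64 and -5.45 in WT-injury replicates 1 to 5, and -4.03, -3.16, -3.34, -3.22 and -3.02 in KO-injury replicates 1 to 5. The lowest value of all 20 arrays was that of WT-injury replicate 4, with an intensity of 7.58 units. Among Myd88KO arrays the lowest was KO-injury replicate 1, which still lay above every wild-type array. All 10 Myd88KO arrays, from -4.03 to -3.02, were therefore above all 10 wild-type arrays, from -6.64 to -4.77. Of all 26064 tested probes 0.326% had genotypes that did not overlap in this way, in either direction, and nothing is read from that share because the same arrays chose Ntn4. The other 11 probes of netrins and receptors overlapped between the genotypes.

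**Figure D1:**
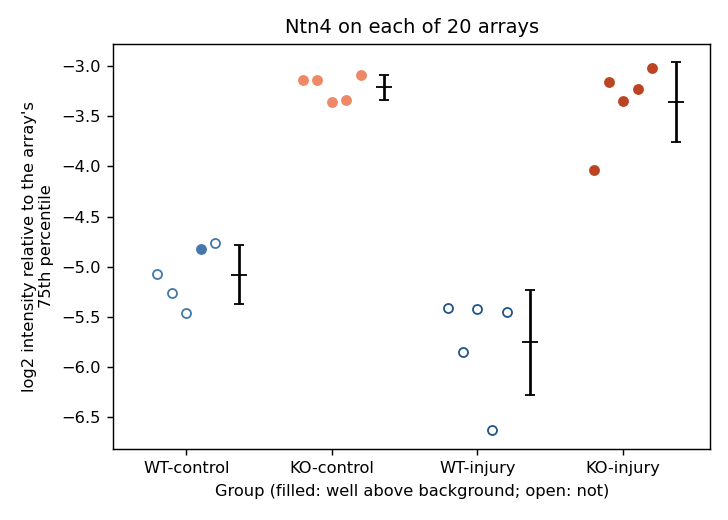
Ntn4 level (log2 intensity relative to the 75th percentile of the array) on each of the 20 arrays by group, in order of replicate, with filled points for arrays where the probe was well above background and open points where it was not. Black bars give the mean and SD of 5 arrays, and all 10 Myd88KO points lie above all 10 wild-type points.

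In group means, Ntn4 was lowest in WT-injury (-5.76 ± 0.52, SD, n = 5), then WT-control (-5.08 ± 0.30), KO-injury (-3.36 ± 0.40) and KO-control (-3.21 ± 0.12). The groups that share a genotype overlapped, whereas WT-control and KO-injury, neighbours in this order, did not overlap. Between genotypes the uninjured difference in measured means was 1.87 (SE 0.23), with 1 of the 5 WT-control arrays above background. In this comparison 1 of the 8 tested probes of the netrin genes was called (adjusted p under 0.01), where 0.384% of all tested probes were, and 1 of 8 had groups that did not overlap, against 2.51% of all. Both are Ntn4, chosen for this difference, and nothing is read from either count.

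In injured tracheas the measured means of Ntn4 differed by 2.40 (SE 0.23), with Myd88KO the higher. Since the probe was above background on no WT-injury array, no exact fold change is given. The Myd88KO mean was 3.11-fold the dimmest signals classed as well above background on the wild-type arrays. Those signals were the dimmest over all probes of an array, so the value is not a strict lower limit. Among all tested probes 0.38% were called between the injured genotypes, and 1.96% had groups that did not overlap. Without KO-injury replicate 5 the difference was 2.32, and without WT-injury replicate 4 it was 2.18. Under another background correction, normexp with an added offset of 50, the injured difference was 0.70 and the uninjured difference 0.62. The injured groups then overlapped, with levels of -3.46 to -2.79 in wild-type and -2.87 to -1.90 in Myd88KO.

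Every group had 1 array on each of the 5 slides, which allowed the genotypes to be compared within a slide. Ntn4 was higher in Myd88KO on 5 of 5 slides in uninjured tracheas, by 1.49 to 2.13, and on 5 of 5 slides in injured tracheas, by 1.38 to 3.42. The slides had been scanned on 2 days, and the mean injured difference was 2.73 on the day with 3 slides and 1.91 on the day with 2. Every Myd88KO array lay above every wild-type array, which fixes the direction on each slide and day. Nothing further is read from these directions.

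The differences of Ntn4 with injury were part of its choice as well, since a called change would have removed it from the list. In wild-type tracheas the measured mean with injury differed by -0.68 (SE 0.23), lower on 4 of 5 slides, and both groups were at or near background. In Myd88KO tracheas, where the probe was measured on all 10 arrays, the difference was -0.15 (SE 0.23). Without KO-injury replicate 5 it was -0.23.

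**Figure D2:**
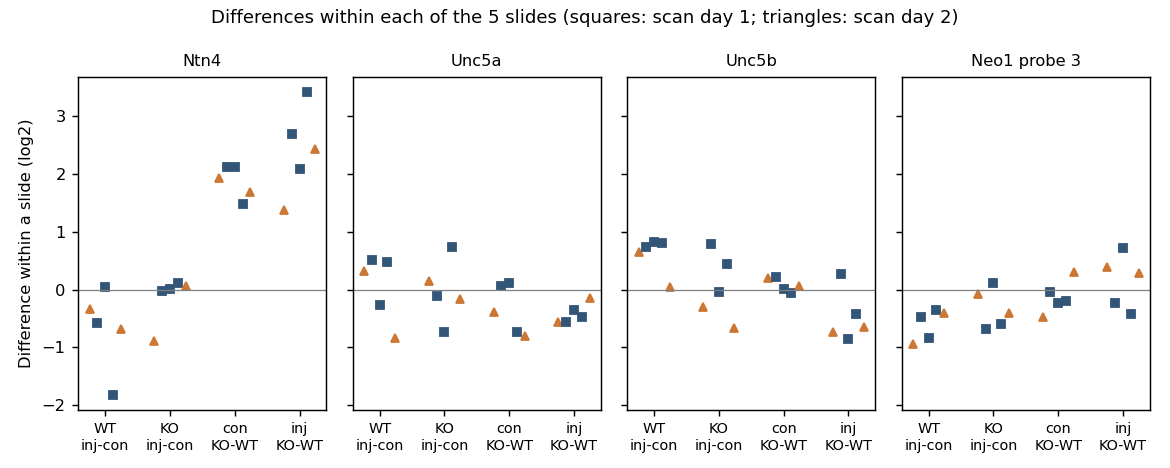
Differences within each of the 5 slides (log2) for Ntn4, Unc5a, Unc5b and Neo1 probe 3, each point being 1 slide, squares scan day 1 and triangles scan day 2. From left to right in each panel stand injured minus control in wild-type, the same in Myd88KO, Myd88KO minus wild-type in controls, and the same after injury. Ntn4 was higher in Myd88KO on every slide, which follows from the separation of the genotypes over all arrays.

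In whole tissue, fewer cells of a type and less RNA per cell cannot be told apart, and Ntn4 could come from any cell of the trachea. Of 14 lists of cell type markers, 1 had a summed level that did not overlap between the uninjured genotypes. This was the adipocyte list, of whose 5 genes 4 or 5 were detected on each of these arrays, with a log2 summed level of 6.45 to 6.86 on KO-control and 5.39 to 6.23 on WT-control arrays. In injured tracheas 0 of the 14 summed levels separated the genotypes, and the adipocyte list spanned 4.72 to 6.72 in wild-type and 5.16 to 6.78 in Myd88KO. A sum follows its brightest genes, and single probes differed more. Injured differences ran from 0.23 to 2.47 in the ciliated list and from -0.33 to 2.11 in the adipocyte list. They ran from -1.60 to -0.26 in the fibroblast list and from -3.87 to -0.13 in the myeloid list. The lymphatic, cartilage, thyroid and proliferation lists also had only lower probes in Myd88KO. The endothelial list, with 8 of 8 genes detected on every array, spanned 4.15 to 4.72 on WT-control and 4.47 to 4.82 on KO-control arrays. The part of these cells in the Ntn4 difference was not tested.

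The Ntn4 pattern was most like that of genes on other chromosomes. Over the 20 arrays, which share the genotype difference, the highest Pearson correlations with Ntn4 among tested probes belonged to Cuedc1 (r = 0.960) and to Arsk, a lysosomal sulfatase (0.952). They were followed by Txndc13 (0.947), a thioredoxin-related membrane protein, by Eif2s2 (0.942), a subunit of translation initiation factor 2, and by Itga9 (0.938), the integrin alpha 9 chain. The remaining 3 of the 8 were 1700124P09Rik (0.936), the lipid flippase Atp10d (0.935) and the mitochondrial transhydrogenase Nnt (0.934). The probes of Itga9 (from 118578986) and 1700124P09Rik (from 109466704) lie on chromosome 9, as does the Myd88 probe (from 119016408). The others lie on chromosomes 2, 5, 11 and 13. The part of linkage to Myd88 in these patterns was not tested. Once each group's own mean was subtracted, the correlations of these 8 genes with Ntn4 fell to between 0.355 for Arsk and 0.567 for Eif2s2. Most of the likeness therefore lay in the group means, such as -1.91 in WT-control and 1.24 in KO-control tracheas for Cuedc1.

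Within 2 Mb of the Ntn4 probe on chromosome 10, the array held 47 tested probes of 25 genes. In the uninjured comparison of genotypes 3 of these 47 probes were called, or 6.38%, where 0.384% of all tested probes were. The 3 were Hal, histidine ammonia-lyase, 229 kb away, with a difference of 6.19, Fgd6, a guanine nucleotide exchange factor 396 kb away, with 1.16, and 1 of 3 probes of Vezt, an adherens junction protein 241 kb away, with -1.77. In injured tracheas 2 of the 47 were called, or 4.26% against 0.38% of all. Nothing is read from either share, because Ntn4 was chosen on these arrays. The injured differences in measured means were 6.07 for Hal, -1.96 for the same Vezt probe and 0.63 for Fgd6, which was not called. Hal was well above background on 2 of 5 WT-control and 4 of 5 WT-injury arrays, and the Vezt probe on 3 of 5 KO-control and 2 of 5 KO-injury arrays, so that these differences rest in part on signals near background. Hal levels were 0.48 to 2.56 on Myd88KO arrays and -6.31 to -3.66 on wild-type arrays. Within 1 Mb, 34 probes were tested and the same numbers, 3 and 2, were called.

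**Figure D3:**
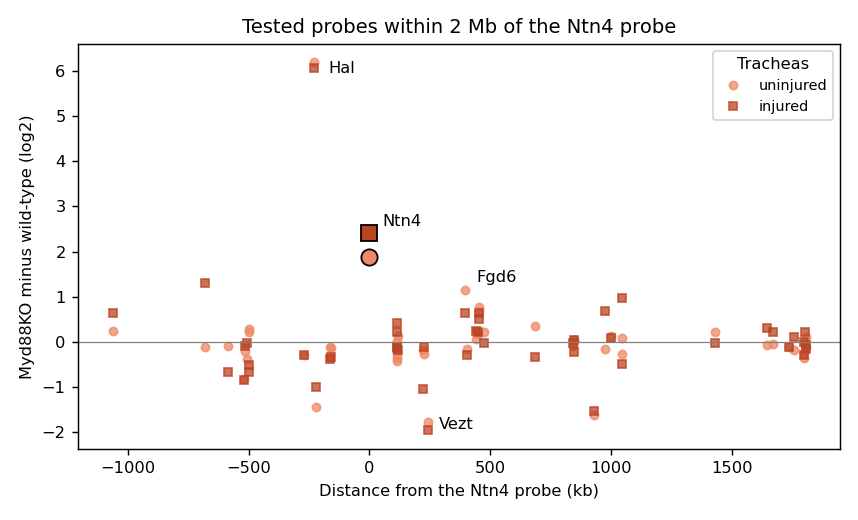
Difference between Myd88KO and wild-type tracheas (log2) of each tested probe within 2 Mb of the Ntn4 probe, against its distance from that probe in kb, with circles for uninjured and squares for injured tracheas. The large outlined symbols are Ntn4, at 1.87 and 2.40, and Hal at about -229 kb is the only probe of the interval above it.

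The ligand Ntn1 was represented by 2 probes, of which the array assigns probe 1 to a RefSeq transcript and probe 2 to another cDNA record. Probe 1, on chromosome 11 at 68308125 to 68308184 in the files, was well above background on 3 of 20 arrays and was not tested. Probe 2, at 68291883 to 68291942, was well above background on 18 of 20. Its levels in WT-control replicates 1 to 5 were -3.59, -3.46, -2.93, -3.26 and -3.87 and in WT-injury replicates -4.53, -3.11, -3.94, -3.38 and -4.81. The KO-control levels lay between -4.06 and -2.71 and the KO-injury levels between -4.23 and -3.18. All 4 groups overlapped, and in each of them the 2 arrays of the smaller scan day, replicates 1 and 5, were the 2 lowest.

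Against this spread Ntn1 probe 2 passed the test in no comparison in which one is given. The difference with injury was -0.53 (SE 0.31, adjusted p = 0.298) in wild-type and -0.33 (SE 0.31, adjusted p = 0.601) in Myd88KO tracheas. In wild-type, blocking on the slide gave an adjusted p of 0.0764 (SE 0.20), and blocking on the scan day gave 0.0555 (SE 0.19). Between the genotypes the difference was 0.06 without injury, where no test is given, and 0.26 (SE 0.31, adjusted p = 0.778) after injury. The 95% interval of the last ran from -0.39 to 0.92.

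Unc5a and Unc5b, transmembrane receptors of netrins, were each measured by 1 probe that was well above background on 20 of 20 arrays. In the files the Unc5a probe lies on chromosome 13 at 54088271 to 54088330 and the Unc5b probe on chromosome 10 at 60282808 to 60282867. Unc5a stood at 1.19, 1.11, 1.65, 1.41 and 1.93 in WT-control replicates 1 to 5 and at 0.80, 1.17, 1.76, 0.68 and 1.12 in KO-control replicates. After injury it stood at 1.51, 1.63, 1.39, 1.88 and 1.09 in wild-type and at 0.95, 1.07, 1.03, 1.41 and 0.95 in Myd88KO. Thus 4 of the 5 KO-injury arrays lay below every WT-injury array, and replicate 4 lay among them. The injured difference between genotypes was -0.42 (SE 0.20, adjusted p = 0.410), and Unc5a was lower in Myd88KO on 5 of 5 slides, by 0.14 to 0.56 of a log2 unit. Without KO-injury replicate 4 the difference was -0.50 (adjusted p = 0.268), and in uninjured tracheas it was -0.35, lower on 3 of 5 slides. Injury left Unc5a within its spread in wild-type (0.04, SE 0.20) and in Myd88KO (-0.03, SE 0.20).

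Unc5b, a receptor best known from blood vessels, had the largest rise with injury among the tested netrin and receptor probes, without passing the test. Its levels were 0.72, 0.11, 0.69, 0.34 and 1.38 in WT-control replicates 1 to 5 and 1.37, 0.84, 1.51, 1.15 and 1.43 in WT-injury replicates. The groups overlapped because WT-control replicate 5 was high, yet the injured array was the higher on 5 of 5 slides, by 0.05 to 0.82. The mean difference was 0.61 (SE 0.23, adjusted p = 0.0935), which blocking on the slide brought to an adjusted p of 0.0399. The summed levels of 12 of the 14 marker lists overlapped between these groups. Among these 12 were the myeloid list, with 3 of 6 genes called higher with injury, and the ciliated list, with 2 of 5 called lower. Of all tested probes 5.26% were called. The endothelial list, with 0 of 8 genes called, stood at 4.15 to 4.72 on WT-control and 4.54 to 5.53 on WT-injury arrays, and the summed levels of the fibroblast list (8.43 to 9.15 and 8.75 to 9.61) and the cartilage list (4.26 to 4.95 and 4.86 to 5.40) were placed likewise. By probe, the median difference was 0.38 for the endothelial and 0.61 for the fibroblast list. For the cartilage list it was -0.04, with probes from -0.66 to 1.03. The proliferation list, at 1.78 to 3.61 without and 4.40 to 5.29 with injury, was above and the secretory list below its uninjured range on every WT-injury array. The part of these cells in the Unc5b difference was not tested.

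In Myd88KO tracheas the Unc5b levels were 0.93, 0.33, 0.70, 0.28 and 1.43 without injury and 0.63, 1.11, 0.65, 0.72 and 0.78 after it. Injury gave no consistent direction there, with the injured array higher on 2 of 5 slides and a mean difference of 0.04 (SE 0.23, adjusted p = 0.942). The difference between the injury responses was -0.57 (SE 0.33, adjusted p = 0.546). After injury Unc5b was lower in Myd88KO on 4 of 5 slides, with a difference of -0.48 (SE 0.23, adjusted p = 0.407) and a 95% interval of -0.97 to 0.01. Without injury the genotypes differed by 0.09, and on each slide by no more than 0.22, although the replicates ranged over more than 1 unit. The uninjured levels of Unc5b were therefore more alike within a slide than within a group.

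Unc5c had 2 probes that could not be compared, since probe 1 was well above background on 0 of 20 arrays. Probe 2 was well above background on 20 of 20, with medians of -1.69 in WT-control, -1.76 in KO-control, -1.63 in WT-injury and -2.12 in KO-injury and a range over all arrays of -2.59 to -0.96. All groups overlapped. The injured difference between genotypes was -0.47 (SE 0.31, adjusted p = 0.559), and the difference with injury was 0.01 (SE 0.31) in wild-type and -0.29 (SE 0.31) in Myd88KO. The probe for Dcc, the receptor first described for netrin 1, was well above background on 1 of 20 arrays, KO-control replicate 5, and no level is given for it.

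Neo1, a relative of Dcc that also binds repulsive guidance molecules, had 4 probes on chromosome 9 between 58904411 and 58940805 in the files, and they did not behave alike. The array assigns only probe 1 to a RefSeq transcript of Neo1. Probes 2 and 3 are assigned to 1 other cDNA record and probe 4 to another. Probe 1 was the steadiest of the 8 tested probes, with levels of 1.43 to 1.68 in WT-control, 1.52 to 1.74 in KO-control, 1.51 to 1.84 in WT-injury and 1.43 to 1.62 in KO-injury. With injury it differed by 0.15 (SE 0.11, adjusted p = 0.386) in wild-type tracheas, and in Myd88KO tracheas by -0.07 (SE 0.11, adjusted p = 0.755). Between genotypes it was -0.16 (SE 0.11, adjusted p = 0.564) after injury, with a 95% interval of -0.38 to 0.06. Probe 2 was well above background on 1 of 20 arrays and was not tested.

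Neo1 probes 3 and 4 pointed the other way from probe 1 with injury in wild-type tracheas. Probe 3 had levels of -1.15, -0.35, -0.44, -0.59 and -1.59 in WT-control replicates 1 to 5 and -2.10, -0.82, -1.28, -0.95 and -1.99 in WT-injury replicates. The injured array was the lower on 5 of 5 slides, by 0.36 to 0.95 of a log2 unit, but in each of the 4 groups the arrays of the smaller scan day were the 2 lowest, so that the groups overlapped. The difference was -0.61 (SE 0.32, adjusted p = 0.234). Blocking on the slide gave an adjusted p of 0.0150, and blocking on the scan day gave 0.00987, the 1 alternative under which a netrin or receptor probe passed the test for injury. Over all 26064 tested probes the scan day block called 2106, against 1372 without it. Within scan days the mean difference was -0.56 and -0.67. Probe 4 had a difference of -0.83 (SE 0.37, adjusted p = 0.153), lower on 4 of 5 slides, and in Myd88KO tracheas probes 3 and 4 had -0.33 and -0.32 (adjusted p = 0.609 and 0.680). Between injured genotypes the 2 probes had 0.15 and 0.23.

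**Figure D4:**
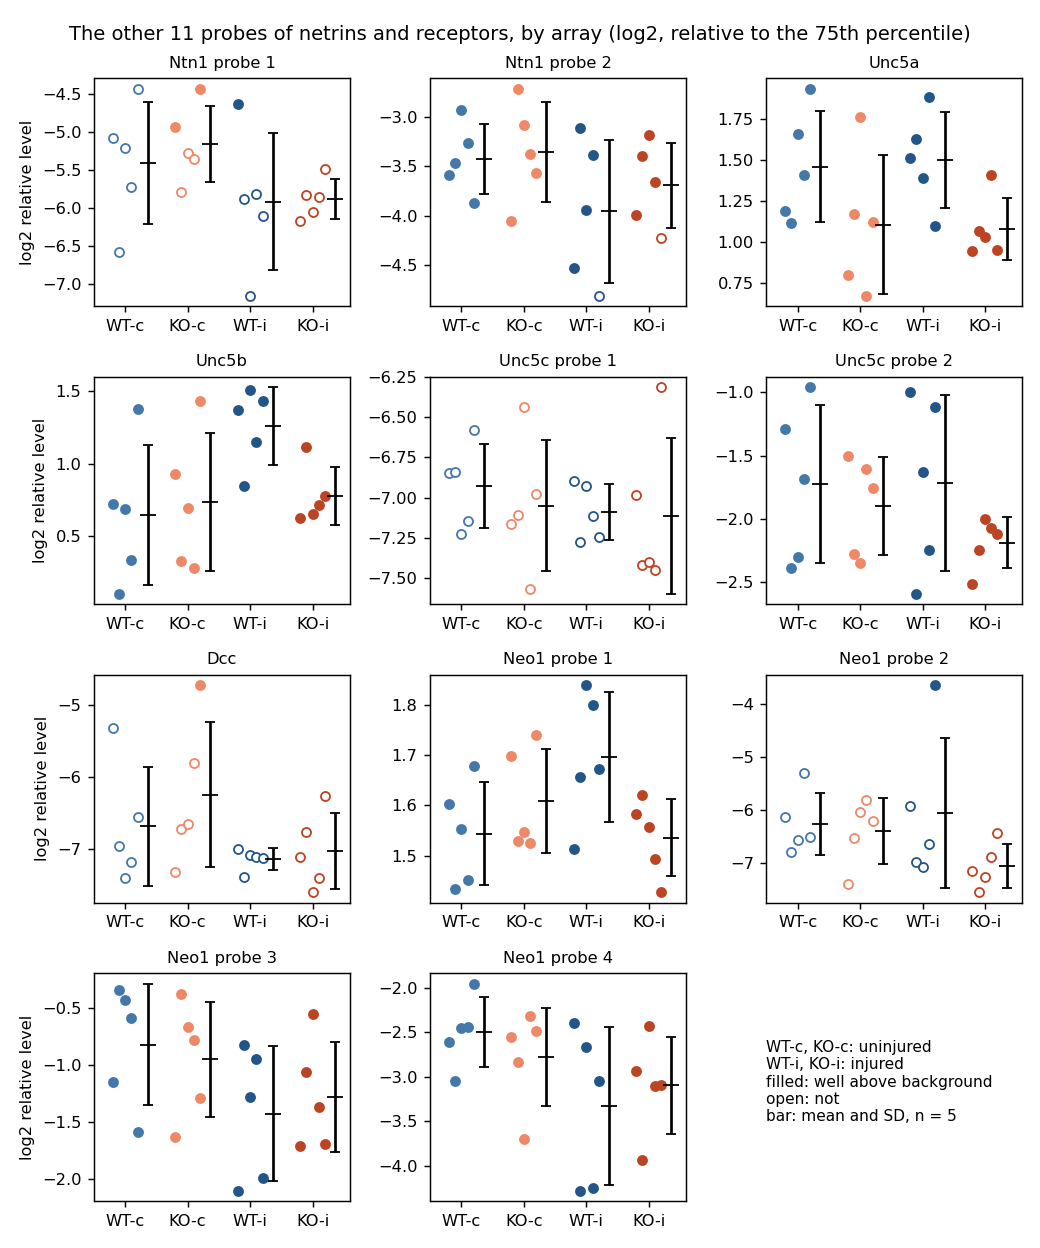
Levels (log2 intensity relative to the 75th percentile of the array) of the 11 probes other than Ntn4 on each of the 20 arrays, by group and in order of replicate, with filled points where the probe was well above background. Black bars give the mean and SD of 5 arrays. The 4 probes with mostly open points are those that were not tested, and the genotypes overlap in every panel.

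Counts are given for the 7 tested probes other than Ntn4. Injury in wild-type tracheas called 0 of 7, where 5.26% of all tested probes were called. At an unadjusted p under 0.05 there were 2 of 7, Unc5b and Neo1 probe 4, where 26.4% of all tested probes fell under it. Groups did not overlap for 0 of 7, against 12.6% of all. Injury in Myd88KO tracheas called 0 of 7 by limma against 0.376% of all, with 0 of 7 at an unadjusted p under 0.05 against 19.5% and 0 of 7 without overlap against 3.45%. Between injured genotypes limma called 0 of 7 against 0.38% of all, with 0 of 7 at an unadjusted p under 0.05 against 12.5% and 0 of 7 without overlap against 1.96%. The limma test of the difference between the injury responses called 0% of all probes and 0 of the 7, and at an unadjusted p under 0.05 there were 0 of 7 against 10.4%. The median difference over the 7 probes was 0.01 with injury in wild-type and -0.29 in Myd88KO, where the medians over all tested probes were 7.9e-05 and -0.07.

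**Figure D5:**
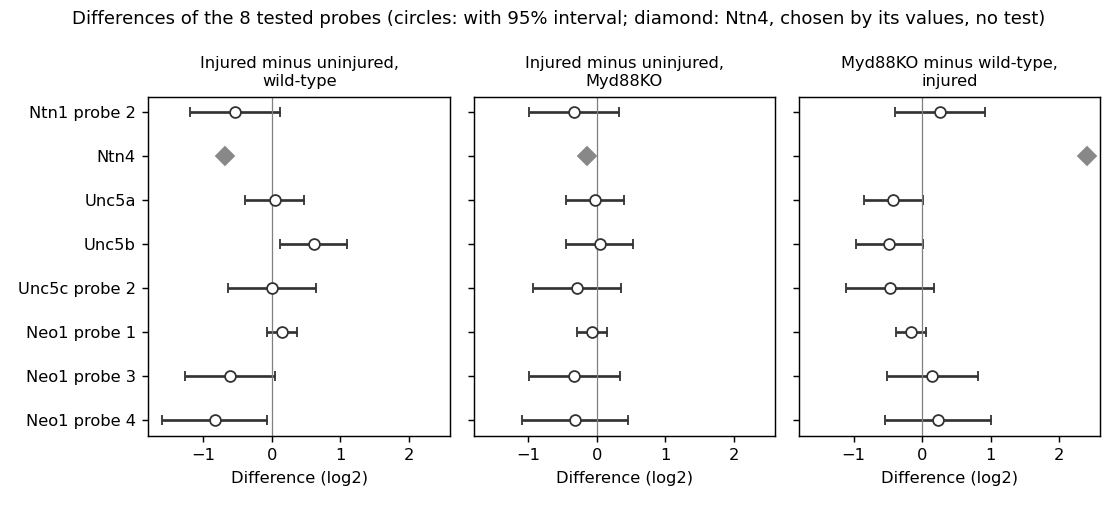
Difference (log2) of each of the 8 tested probes for injured minus uninjured wild-type, injured minus uninjured Myd88KO, and Myd88KO minus wild-type after injury. Circles have their 95% interval, and the diamond is Ntn4, chosen by its values and shown with no test, at 2.40 in the last panel. None of the circles had an adjusted p under 0.01.

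The genes around the netrins were followed through 8 lists of related ligands, receptors and signalling proteins. Over all tested probes 5.26% were called with injury in wild-type and 0.376% with injury in Myd88KO. Between the genotypes 0.384% were called without injury and 0.38% after it. Among the other netrins and netrin-G proteins 2 of 4 genes on the array could be tested, Ntn3 and Ntng1, and 0 were called in any comparison. Ntn3, listed under an older symbol, had the largest injured difference between genotypes of these, -0.66 (SE 0.19, adjusted p = 0.151). Of 5 further receptors 3 could be tested and 0 were called, the adenosine receptor Adora2b having an uninjured difference of -1.03 (SE 0.28, adjusted p = 0.173). The laminins and nidogens, the basement membrane partners of Ntn4, had 11 of 13 genes tested and 0 called, with a median difference of 0.46 over 17 probes with injury in wild-type and -0.01 in Myd88KO.

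Integrins that bind laminin or netrin had 5 of 6 genes tested, repulsive guidance molecules and Flrt proteins 5 of 6, and signalling proteins of the netrin receptors, such as Fyn, Src and Ptk2, 16 of 16, and 0 of each were called in any comparison. Of 8 tested genes of dependence receptor death signalling 1 was called, Trp53, the p53 tumour suppressor, which rose with injury in wild-type tracheas by 0.72 (SE 0.16, adjusted p = 0.00669) at 1 of its 2 probes, the other having -0.03. Of 6 tested Slit ligands and Robo receptors 1 was called, the guidance ligand Slit3, which rose with injury in wild-type tracheas at both of its probes. The first rose by 0.97 (SE 0.19, adjusted p = 0.00308), the second by 0.70 (adjusted p = 0.00849). In Myd88KO tracheas the Slit3 differences were 0.14 and 0.17, and the difference between the responses was not called (adjusted p = 0.391 and 0.461). With injury in wild-type 1 of 12 probes of the death signalling list and 2 of 8 of the Slit and Robo list were called, against 5.26% of all. No list had a gene called between the genotypes, where 0.384% (uninjured) and 0.38% (injured) of all tested probes were.

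The bright Neo1 probe 1 was taken as a second pattern. Over the 20 arrays its highest correlations included those with Naprt1, an enzyme of NAD synthesis (r = 0.856), the interferon-regulated factor Irf1 (0.752) and the secreted protease Htra1 (0.750). Unlike those of Ntn4 they changed little when the group means were subtracted, to 0.817, 0.690 and 0.648. The likeness to Neo1 probe 1 thus lay mostly among arrays of the same group, which differ in slide and scan day as well as in animal.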

How the data were processed

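Total RNA of 20 whole tracheas was hybridised to 1 one-colour array each. Per the file headers the authors scanned and extracted the arrays with Feature Extraction 9.5.1.1, and the deposited values used are the processed signal intensity of each spot, background-subtracted and not scaled between arrays. A deposited table of values for the same arrays gave intensity equal to these (ratio 0.995 to 1.00). Control spots (1639 of 45018) and 1960 outlier values, 0 of them at the probes reported, were left out, and spots of 1 probe were averaged.

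Intensities were turned into log2 values minus each array's 75th percentile, and 26064 probes well above background on at least 10 of 20 arrays were tested with limma 3.58.1 (R 4.3.3), all groups in 1 fit, with Benjamini-Hochberg adjustment over all tested probes within each comparison. An adjusted p under 0.01 was called. The test was tried on simulated data. The number of arrays, 5 per group, limits the precision. Each replicate number was 1 slide holding all groups, and same-numbered arrays had correlated deviations of -0.22 to 0.48, 19 of 20 arrays being closer to their own number. The genes, lists and tests were chosen with earlier results of these data known. Each netrin and receptor probe is reported, with list genes called in a comparison, the 8 best correlates of Ntn4, some of those of Neo1 probe 1 (1 is not reported here) and called neighbours within 2 Mb of Ntn4. Genes outside this rule, Ntn3, Ntng1, Adora2b and the signalling examples, were named after their values were seen. Lists matched the array by symbol or, for 12 names, by an older symbol.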

Additional observations from a re-analysis of the deposited data

Results flagged for a closer look

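Unc5a in KO-injury replicate 4 stood at 1.41, apart from the other 4 arrays of its group, of which the nearest was at 1.07. This gap was 0.742 of the range of the group, above Dixon's 95% limit for 5 values. Of 48 groups of netrin and receptor probes looked at in this way 1 was set apart, and chance alone sets apart about 1 in 20.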

How the results depend on the processing

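The alternatives were the slide (replicate block) or scan day as a block, normexp, quantile normalization, median centring, no filter, fits of 2 groups, array weights, outlier spots kept, the deposited value table, the methods' one-way test, and each array left out. The number of netrin and receptor probes called for injury in wild-type was 0, and 1 with scan day as a block. That block raised the calls over all 26064 tested probes from 1372 to 2106. The number of these probes called was 1 between the uninjured and 1 between the injured genotypes, and 0 in both with normexp and 0 between the injured genotypes with the one-way test. Over all 26064 tested probes 100 and 99 were called, and 76 and 77 with normexp. The one-way test called 21 between the injured genotypes. Both calls of these probes are Ntn4, which was chosen by its values, so nothing is read from them. Its signal lies near background, where the added offset makes differences smaller by construction. The replicate block changed no call of a netrin or receptor probe (Unc5b with injury in wild-type 0.61, adjusted p = 0.0399). Leaving out 1 array left between 2.18 and 2.57 for Ntn4 after injury. Of 904 values of these probes under the alternatives 38 changed direction, none of them called. Over all probes the calls ranged from 665 (without WT-control replicate 2) to 2630 (array weights) around 1372 for injury in wild-type, and from 665 to 1218 without any 1 array. For injury in Myd88KO they ranged from 0 (one-way test, 2 groups only) to 2088 (array weights) around 98, with 6 to 57 calls without any 1 array but KO-injury replicate 5 and 1075 without that one. Between uninjured genotypes they ranged from 46 (one-way test) to 179 (array weights) around 100, between injured genotypes from 21 (one-way test) to 136 (scan day block) around 99, and for the difference between responses from 0 to 3. The one-way test and the fit of 2 groups were not run for the last.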
